A study of Drosophila melanogaster with 12 samples.

Results

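The peaks described here are all peaks on the X chromosome in the RNA polymerase II (Pol II) peak lists of Kc167 cells, a Drosophila melanogaster hemocyte line that was derived from embryos and is labelled female. They were chosen by chromosome alone, and they numbered 5237 of the 27691 peaks of 6 libraries, to be set against the 16534 peaks on the autosomal arms 2L, 3L and 3R. Chromatin was immunoprecipitated with the antibody 8WG16, which binds the hypophosphorylated tail of the largest Pol II subunit. Cells had received an siRNA against AGO2 (siAGO2), a long dsRNA directed at LaminB (dsLaminB), or no RNA (mock), and were collected 3 days after transfection, with 2 libraries per treatment. AGO2 is the Argonaute protein of the siRNA pathway, and LaminB is a protein of the nuclear lamina. Mock cells differ from the knockdowns in receiving no RNA at all, and siAGO2 and dsLaminB in the kind of RNA. Each list was called separately against its own input DNA. The labels do not say whether the libraries came from separate cultures, so p-values measure only the spread between these libraries. The numbers of reads are unknown from the lists, so a longer list cannot be told apart from deeper sequencing or a more efficient immunoprecipitation.

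Fly males have a single X and raise its transcription with a complex of proteins and the noncoding RNAs roX1 and roX2. In females, the splicing factor Sxl blocks the making of that complex. Hypophosphorylated Pol II is the form that is recruited to promoters before initiation, so its peaks mark mainly transcription start sites (TSSs). A TSS peak is used below for a peak that reached within 500 bp of any annotated TSS of a gene.

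Genes tied to the labelled sex and cell type were looked at first. Sxl (FBgn0264270) had a TSS peak in all 6 libraries, at the 3.91 and 15.6 rank percentile in siAGO2 cells, the 38.7 and 18.5 in dsLaminB cells, and the 8.08 and 17.1 in mock cells. The rank percentile is the place of a peak in its own list by the deposited −log10 q, where 0 is the strongest and 100 the weakest. A peak at any annotated TSS of Sxl was counted, and splicing is not seen in these data, so this peak does not check the sex. Neither roX1 nor roX2 had a peak in any library. Of 8 hemocyte genes in the marker list, 7 had a TSS peak in all 6 libraries, among them Hml, srp and Pvr, whereas NimC1 had none. Of the 3 fat body markers and the 2 germline markers examined, 0 had a peak. Of 4 neuron and 3 muscle markers, elav and Mef2 had a TSS peak in all 6 libraries and the rest none, and of 3 crystal cell markers lz had one in 5 libraries.

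Promoters of 4 X genes are shown because their peaks stand at both ends of what was seen. Ptp10D and inaE were among the 10 X genes with the lowest mean rank percentile, Act5C lay under one of the 3 widest X sites, and Yp1 had no peak in any library. The windows run from 250 bases before to 30 bases after the start of the gene, in the dm6 sequence of RefSeq and on the coding strand, which was the plus strand in all 4. Capitals mark the motifs that were searched on both strands: the DRE with TATCGATA, the GAF motif with the letters GAGAGAG, the E-box with the letters CAGCTG, the core of a TBP site with the letters TATAAA, called TATA below, and the initiator (Inr) with the letters TCAGTT. The windows lie at chrX:11621765-11622044 (Ptp10D), chrX:13783464-13783743 (inaE), chrX:5900611-5900890 (Act5C) and chrX:10053561-10053840 (Yp1).
Ptp10D: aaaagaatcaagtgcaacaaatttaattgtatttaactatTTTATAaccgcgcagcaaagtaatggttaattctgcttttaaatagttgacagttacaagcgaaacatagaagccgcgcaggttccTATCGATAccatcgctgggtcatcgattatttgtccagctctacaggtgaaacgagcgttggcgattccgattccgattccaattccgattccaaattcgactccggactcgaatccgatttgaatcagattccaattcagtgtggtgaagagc
inaE: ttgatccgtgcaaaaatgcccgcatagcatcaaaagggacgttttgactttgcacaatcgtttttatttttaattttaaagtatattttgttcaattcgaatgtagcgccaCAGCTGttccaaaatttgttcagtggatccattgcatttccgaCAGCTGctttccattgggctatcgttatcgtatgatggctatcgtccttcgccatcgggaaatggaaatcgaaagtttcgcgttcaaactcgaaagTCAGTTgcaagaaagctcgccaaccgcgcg
Act5C: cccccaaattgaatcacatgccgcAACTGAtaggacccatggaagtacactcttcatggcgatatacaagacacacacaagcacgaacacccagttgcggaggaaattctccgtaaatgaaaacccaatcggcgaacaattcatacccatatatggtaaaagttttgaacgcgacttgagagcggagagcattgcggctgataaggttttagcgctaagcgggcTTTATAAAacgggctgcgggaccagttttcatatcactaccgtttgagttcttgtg
Yp1: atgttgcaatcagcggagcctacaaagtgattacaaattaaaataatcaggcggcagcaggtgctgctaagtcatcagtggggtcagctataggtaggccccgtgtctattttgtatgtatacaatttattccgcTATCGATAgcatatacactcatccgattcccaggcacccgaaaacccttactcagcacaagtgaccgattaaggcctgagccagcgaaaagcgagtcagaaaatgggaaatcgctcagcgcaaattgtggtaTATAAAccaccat
Ptp10D and Yp1 both hold the DRE, which begins at −124 in Ptp10D and at −115 in Yp1 relative to the gene start. The TATA letters begin at −24 in Act5C, overlapped by those of the opposite strand from −26, and the Inr letters begin at 1 in inaE. Peaks covered the gene start of Ptp10D, inaE and Act5C in all 6 libraries. A match is a description of letters and not a binding site.

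The first question was whether the X carried as many peaks as the autosomal arms in the same list. It carried more than 2L, 3L and 3R, both per Mb and per gene. The X held 735 and 1049 peaks in siAGO2 cells, 503 and 771 in dsLaminB cells, and 1124 and 1055 in mock cells. For its 23.5 Mb this gave 31.2 and 44.6 peaks per Mb in siAGO2 cells, 21.4 and 32.8 in dsLaminB cells, and 47.7 and 44.8 in mock cells. Over the 83.7 Mb of 2L, 3L and 3R the values were 29.4 and 38.1 in siAGO2 cells, 17.8 and 29.6 in dsLaminB cells, and 42.6 and 40.1 in mock cells. The density on the X was above that of each of the 3 arms in 6 of 6 libraries. The mean difference was 4.15 ± 1.63 peaks per Mb (SD, n = 6 libraries), and the mean ratio 1.13 ± 0.0479. The exact two-sided sign-flip test over libraries gave p = 0.03125, which is the smallest it can give with 6 libraries, and an adjusted p of 0.0375 over the 6 measures tested by this exact test. With lists of equal length (the 2531 strongest peaks of each) the difference was 1.97 peaks per Mb, in the same direction and with the same exact p. The libraries share 1 cell line and 1 annotation, so this p says nothing of the spread between chromosomes. The arm 2R is outside this comparison, and its density of 34.8 and 44.4 peaks per Mb in siAGO2 cells, 21.0 and 34.2 in dsLaminB cells, and 49.0 and 45.9 in mock cells was above that of the X in 4 of 6 libraries.

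Counted per gene, the excess was larger. The 2196 protein-coding genes of the X gave 0.335 and 0.478 peaks per gene in siAGO2 cells, 0.229 and 0.351 in dsLaminB cells, and 0.512 and 0.480 in mock cells. The 8817 genes of 2L, 3L and 3R gave 0.279 and 0.362 in siAGO2 cells, 0.169 and 0.281 in dsLaminB cells, and 0.404 and 0.381 in mock cells. The ratio was 1.28 ± 0.0541 (SD, n = 6 libraries), and the X was above each of the 3 arms in 6 of 6 libraries (exact sign-flip p = 0.03125, adjusted p = 0.0375). With lists of equal length the difference was 0.0433 peaks per gene, against 0.0849 in the full lists. The peaks per gene of 2R lay between those of the 3 arms pooled and those of the X in every library. Peaks covered 2.13% of the X on average, and 1.87% of the 3 autosomal arms. That difference was 0.256 ± 0.174 percentage points (SD, n = 6 libraries; exact sign-flip p = 0.03125, adjusted p = 0.0375), and 0.137 with lists of equal length. On 2R the covered share was above that of the X in 4 of 6 libraries, so a high covered share was not particular to the X.

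More X genes also had a peak at a TSS. On the X, the TSS-peak share of protein-coding genes was 39.2% and 52.8% in siAGO2 cells, 24.3% and 38.8% in dsLaminB cells, and 56.2% and 54.4% in mock cells. Over 2L, 3L and 3R it was 34.1% and 42.8% in siAGO2 cells, 18.9% and 32.2% in dsLaminB cells, and 47.9% and 45.8% in mock cells. The X was thus higher in every library, by 5.02 to 10.0 percentage points and by 7.31 ± 1.97 on average (SD, n = 6 libraries; exact sign-flip p = 0.03125, adjusted p = 0.0375). With lists of equal length the mean difference was 4.57 percentage points. On 2R, outside this comparison, the share was 36.9% and 45.6% in siAGO2 cells, 21.3% and 34.9% in dsLaminB cells, and 50.8% and 48.4% in mock cells. In every library this was above the 3 arms pooled and below the X. In the library with the smallest difference, siAGO2 replicate 1, the 95% Wilson interval ran from 37.1% to 41.2% on the X and from 33.2% to 35.1% on the autosomal arms. Such intervals cover counting error only, and neighbouring genes can share a peak.

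**Figure D1:**
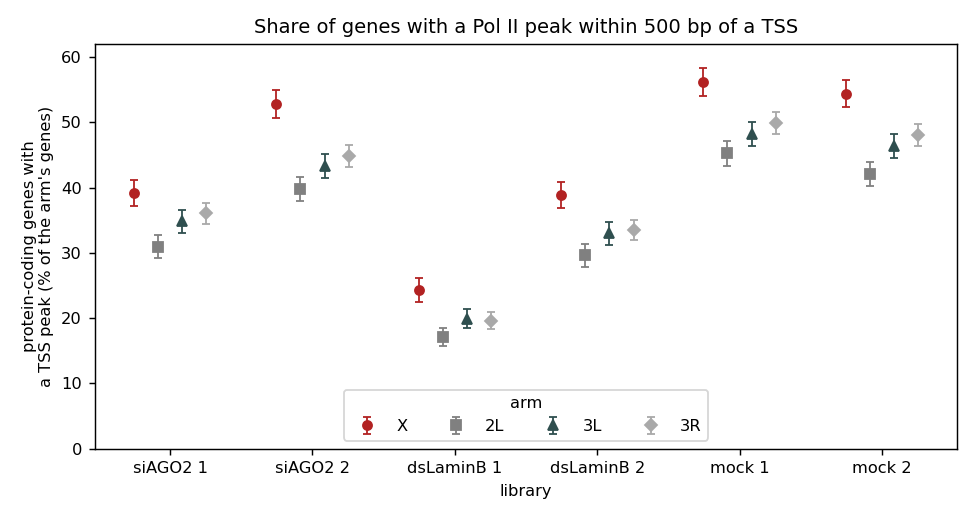
Share of protein-coding genes with a TSS peak, in percent of the genes of each arm, in the 6 libraries. Circles are the X, the other symbols are 2L, 3L and 3R, and bars are 95% Wilson intervals. The X, between 24.3% and 56.2%, lies above the 3 autosomal arms in every library.

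Across all libraries, 1256 of the 2196 X genes (57.2%) had a TSS peak at least once, and 512 (23.3%) had one in all 6. On 2L, 3L and 3R these shares were 49.2% and 18.6%. No TSS peak in any library was found for 940 X genes (42.8%), and for 50.8% of the autosomal genes. Joined over libraries, the X peaks formed 1249 sites, of which 430 (34.4%) had a peak in all 6 libraries and 192 (15.4%) in a single one. The 3910 autosomal sites gave 35.1% and 15.5%. The shares of sites on the X were thus within 1 percentage point of the autosomal ones, a difference that was not tested.

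Nearly all X peaks lay at TSSs, with 96.1% and 91.5% of them in siAGO2 cells, 91.7% and 91.7% in dsLaminB cells, and 91.5% and 93.1% in mock cells. Peaks that reached the TSSs of at least 2 genes made up 28.0% to 33.8% of X peaks and 30.5% to 37.7% of autosomal peaks, and their share was lower on the X in each of the 6 libraries.

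X genes differ from autosomal genes in features that do not depend on the peaks. They were longer, with a median of 2521 bp against 2080 bp on 2L, 3L and 3R. More of them had 2 or more annotated TSSs, 31.1% against 24.8%. The DRE, a motif bound by the factor Dref at many housekeeping promoters, was in the 300-base promoter window (250 bases before and 50 after the gene start) of 299 X genes (13.6%) and of 746 autosomal genes (8.46%). It was present in 9.49% of the promoters of the 4 arms. TATA letters were in 40.3% of X windows and 47.4% of autosomal windows, GAF letters in 5.37% and 6.17%, the E-box in 352 of 2196 and 1584 of 8817 windows, and Inr letters in 25.2% and 26.3%. G and C made up 40.3% of X windows and 38.7% of autosomal windows.

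The TSS-peak share was therefore also given within classes of genes. Among genes with a DRE the X was not higher. With a DRE, the share on the X was 60.5% and 79.6% in siAGO2 cells, 26.1% and 54.2% in dsLaminB cells, and 82.6% and 80.6% in mock cells. The autosomal genes with a DRE gave 59.1% and 76.9% in siAGO2 cells, 30.2% and 55.2% in dsLaminB cells, and 86.9% and 82.6% in mock cells. The difference was −1.21 ± 2.83 percentage points (SD, n = 6 libraries), with the X higher in 2 of 6 libraries. Among the 1897 X genes without a DRE it was 6.82 ± 1.75, with the X higher in 6 of 6. The difference between these classes was not tested. Among genes shorter than 2000 bp it was 2.31 ± 1.49, among those of 2000 to 6000 bp 6.61 ± 2.50, and among those of 6000 bp or more 7.39 ± 2.52. Genes with 1 annotated TSS gave 4.78 ± 1.71, and genes with 2 or more gave 7.93 ± 2.60. The X was higher in 6 of 6 libraries in each of the 3 length classes and in both TSS classes.

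**Figure D2:**
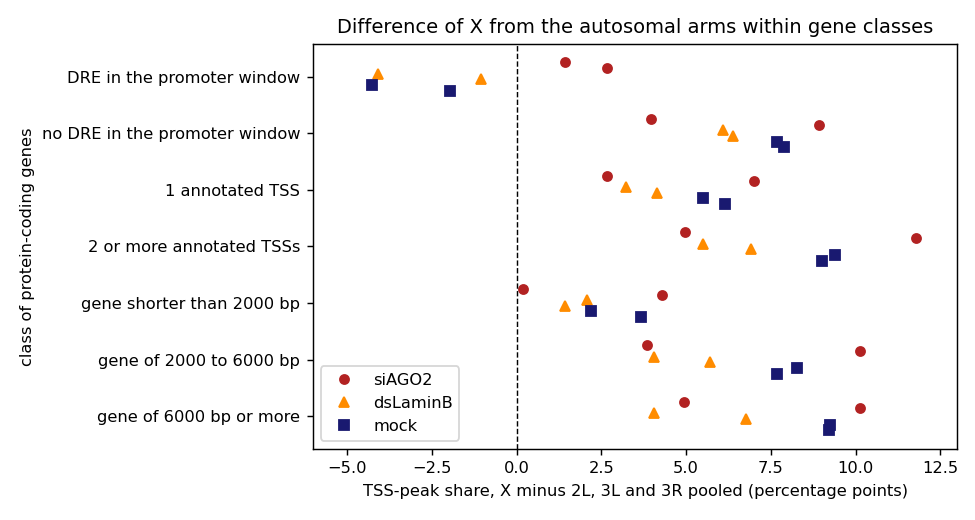
Difference in the TSS-peak share between the X and 2L, 3L and 3R pooled, in percentage points, within classes of protein-coding genes. Each point is 1 library, and the dashed line marks no difference. The points lie on both sides of it for genes with a DRE and to its right in the other classes.

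On the X itself, the DRE was more common in genes with a TSS peak in all 6 libraries than in those with none. It was in the window of 78 of the 512 X genes with a TSS peak in all 6 libraries (15.2%) and of 52 of the 940 with none (5.53%), beside 13.6% and 2.01% on 2L, 3L and 3R. Over all 2196 X genes the share was 13.6%. Genes with a peak in only some libraries thus held it more often than either class. Inr letters went the other way, with 20.1% of the X genes with a peak in all 6 libraries and 31.9% of those with none. TATA letters were about as common in both, at 39.8% and 39.7%. X genes with a peak in all 6 libraries had a median length of 5342.5 bp, and those with none of 1678 bp. Yp1, which encodes a yolk protein, is among the genes with a DRE and without a peak.

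The median peak on the X was not wider than on the other arms, and it stood slightly lower in its list than that of the 3 arms pooled. The median width on the X was 345 and 470 bp in siAGO2 cells, 297 and 340 bp in dsLaminB cells, and 522.5 and 475 bp in mock cells. On 2L, 3L and 3R it was 369 and 466.5 bp in siAGO2 cells, 301 and 354 bp in dsLaminB cells, and 544 and 482 bp in mock cells. The X was narrower in 5 of 6 libraries, by 11.2 ± 10.6 bp on average (SD, n = 6 libraries), a difference that did not pass the test (exact sign-flip p = 0.0625, adjusted p = 0.0625). The widest peaks went the other way. Peaks over 1000 bp made up 3.38% to 20.6% of X peaks and 2.21% to 20.8% of autosomal peaks, with the X higher in 5 of 6 libraries, and the 90th percentile of width was higher on the X in 4 of 6. The shares of wide peaks were not tested. The median rank percentile on the X was 52.1 and 51.5 in siAGO2 cells, 54.3 and 50.9 in dsLaminB cells, and 50.3 and 50.8 in mock cells. On the autosomal arms it was 49.3 and 49.9 in siAGO2 cells, 48.7 and 49.7 in dsLaminB cells, and 50.1 and 50.4 in mock cells. X peaks ranked lower than those of the pooled arms in all 6 libraries, by 1.97 ± 1.99 percentile points (SD, n = 6; exact sign-flip p = 0.03125, adjusted p = 0.0375). Set against single arms, the X ranked lower than each of the 3 in only 3 of 6 libraries. The mean difference from the pooled arms was 1.26 without dsLaminB replicate 1. It was 1.22 without all X peaks from the start of the rRNA segment described below to the chromosome end (exact sign-flip p = 0.03125). The call was lost, at an exact p of 0.0625, under a −log10 q limit of 5 (2.47 percentile points) and with lists of equal length (3.56). Between 8.30% and 9.34% of X peaks fell in the top 10% of their list, against 10.4% to 10.7% of autosomal peaks.

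**Figure D3:**
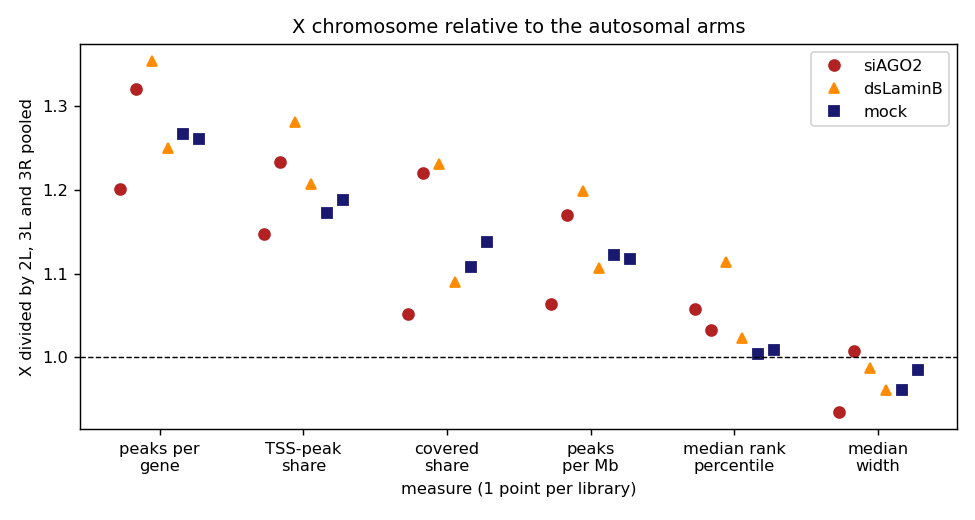
Value on the X divided by that on 2L, 3L and 3R pooled, for 6 measures, with 1 point per library and a dashed line at 1 for equal values. A median rank percentile above 1 means weaker peaks on the X. The ratios of peaks per gene lie between 1.20 and 1.35, and those of the median width between 0.935 and 1.01.

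The strongest X promoters belonged to genes of diverse roles. The 10 X genes with the lowest mean rank percentile of a TSS peak were Pits, Ptp10D, Gmap, sdt, inaE, rut, mgl, pdgy, prage and cib. Ptp10D (FBgn0004370), a receptor tyrosine phosphatase, ranked 40 and 20 in siAGO2 cells, 173 and 1 in dsLaminB cells, and 36 and 15 in mock cells. Its peak was thus the strongest of all 4124 peaks of dsLaminB replicate 2. Gmap (FBgn0027287), a Golgi protein that binds microtubules, ranked 392 and 15 in siAGO2 cells, 4 and 2 in dsLaminB cells, and 24 and 102 in mock cells. For sdt (FBgn0261873), a scaffold of the Crumbs polarity complex, the ranks were 72 and 2 in siAGO2 cells, 94 and 31 in dsLaminB cells, and 8 and 343 in mock cells. The replicates of a treatment differed in these ranks as much as the treatments did. The peaks of sdt and pdgy lay at an inner TSS, since 0 of 6 libraries had a peak within 500 bp of the start of either gene, and Gmap had a peak near its start in 2 of 6, so that in at least 4 libraries its peak lay at an inner TSS as well. A peak near a gene start need not be the ranked one. Adar (chrX:1773725) starts beside prage (chrX:1773719), and its best TSS peak stood between the 44.7 and the 69.3 percentile in 5 libraries. The ranked peak of prage, between the 0.661 and the 5.05 percentile, thus lay at an inner TSS too. The others include inaE, a diacylglycerol lipase, rut, an adenylyl cyclase, mgl, an endocytic receptor, and cib, an actin-binding protein. The mean rank percentile of the 10 genes ran from 1.44 for Pits to 3.10 for cib, and all were chosen by these ranks.

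Genes of cytosolic ribosomal proteins on the X had TSS peaks in nearly every library. Of the 15 such genes, 13 had a TSS peak in all 6 libraries, beside 23.3% of all X genes. RpS28b had the lowest mean percentile of them, at the 11.2 and 5.46 percentile in siAGO2 cells, the 23.4 and 10.1 in dsLaminB cells, and the 16.5 and 2.84 in mock cells. The other two, RpS14a and RpS14b, are neighbouring near-identical copies, so their values are uncertain, and they had a peak in 4 and 3 libraries. The peaks of RpL36, RpS6, RpS19a and sta were also those of the neighbours Mybbp1A, bys, Rok and inc in all 6 libraries. RpS14a shared its peak with Dhdds, and RpS14b with Ubr3, in every library with a peak. RpS5a shared its peak with Chchd2 in 4 libraries, RpL35 with Rab18 in 3, and RpS28b with CG15317 in 1. Of 11 X genes in the list of Pol II and transcription factors, 6 had a TSS peak in all 6 libraries. Polr2A, the largest subunit of Pol II and the target of the antibody, stood at the 14.5 and 15.5 percentile in siAGO2 cells, the 26.7 and 19.0 in dsLaminB cells, and the 14.6 and 20.7 in mock cells. This peak was also the TSS peak of the neighbouring CG11699 in all 6 libraries, so that they cannot be told apart. Trf2 and Spt6, a core promoter factor and an elongation factor, also had a peak in all 6, whereas e(y)2, a subunit of the SAGA coactivator, had one in 3 libraries, both mock libraries and siAGO2 replicate 2. Spt6 shared its peak with schlank, e(y)2 with CG11695 and the cyclin-dependent kinase gene Cdk7 with snf in every library with a peak, and Trf2 with lawc in 5 of 6, so that these pairs cannot be told apart either.

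**Figure D4:**
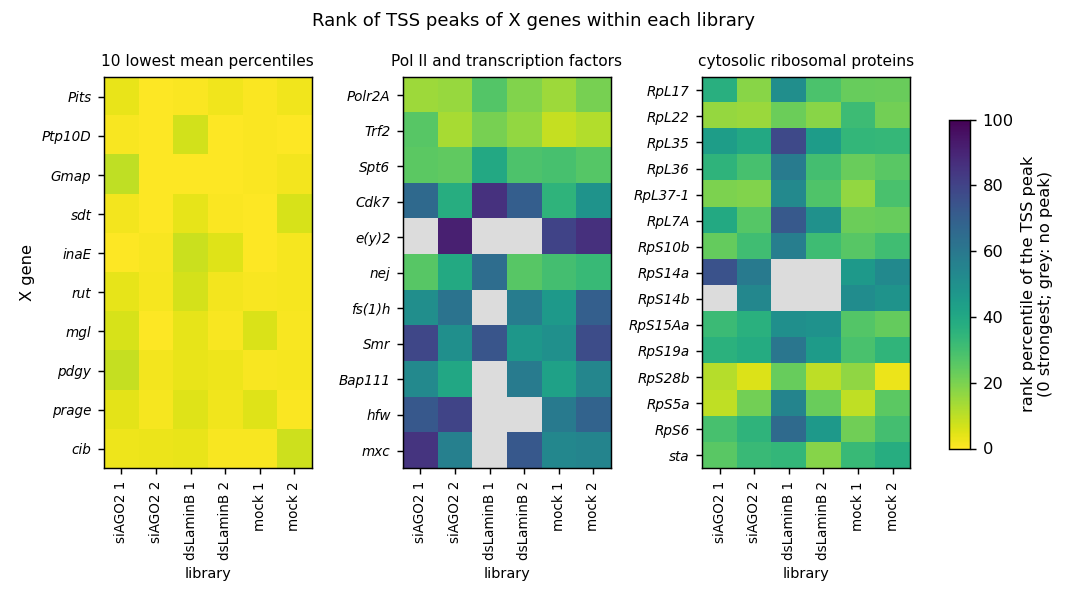
Rank percentile of the TSS peak in each library, from 0 (strongest, yellow) to 100 (weakest, dark), for the 10 X genes with the lowest mean percentile, the Pol II and transcription factors and the cytosolic ribosomal protein genes on the X. Grey marks a library without a TSS peak. Of the cytosolic ribosomal protein genes, 13 of 15 have a peak in all 6 libraries.

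In the list of signalling and polarity genes, 9 of 12 had a TSS peak in all 6 libraries, beside 23.3% of all X genes. The Notch receptor gene N stood at the 13.2 and 10.5 percentile in siAGO2 cells, the 29.9 and 21.7 in dsLaminB cells, and the 8.85 and 7.91 in mock cells. The kinase gene sgg lay between the 5.41 and the 18.2 percentile, and dx, a regulator of Notch signalling, had a weak peak in 3 libraries. Of the metabolic and housekeeping genes 6 of 8 had a peak in all 6 libraries, among them ras, which encodes IMP dehydrogenase, between the 0.988 and the 9.64 percentile with a peak shared with stx, and Zw, the glucose-6-phosphate dehydrogenase gene, between the 3.80 and the 54.3. Of 8 growth, cell cycle and repair genes, 3 had one in all 6, including the growth regulator Myc between the 2.74 and the 17.6 percentile. Of 7 cytoskeleton and trafficking genes, 4 did, including Moe between the 3.83 and the 18.6 percentile. Other peaks in these lists were shared as well, those of hop with Tim8, fu with CG6659 and flw with Psf3 in all 6 libraries. The same held for sqh with dtn, mus101 with Mrgn1, mei-41 with TH1 and eIF5 with exd in every library with a peak. Such a peak cannot be given to either gene alone. Every member of these lists and of the 2 lists above had a TSS peak in at least 3 libraries, including both mock libraries. Over all X genes, 57.2% had a peak in any library. Apart from the ribosomal protein genes, which were taken by name, the members were picked with earlier results of these data known. Their counts thus describe the genes picked and carry no wider statement on such groups of genes.

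Most X genes listed for differentiated tissue were without peaks. They too were picked with earlier results of these data known, so the count describes the list alone. Of 25 such genes on the X, 17 had no TSS peak in any library, beside 42.8% of all X genes. The 17 include the yolk protein genes Yp1, Yp2 and Yp3, the eggshell genes Cp36 and Cp38, the sodium channel gene para, and y, ac and sc. Among the rest, 4 had a peak in all 6 libraries, beside 23.3% of all X genes. These were ct, a homeobox gene, between the 0.520 and the 6.92 percentile, and sn, an actin bundler, between the 0.768 and the 23.2. The others were rdgA, a diacylglycerol kinase, between the 20.3 and the 81.3, and elav, a neuronal RNA-binding protein gene, between the 42.0 and the 97.0. In the list of sex determination and dosage compensation genes, mof, the acetyltransferase of the male complex, had a TSS peak in 3 libraries, siAGO2 replicate 2 and both mock libraries. The X-linked signal elements sisA, run, upd1 and sc, which count X chromosomes early in the embryo, had none.

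The white gene w stood apart. It had a TSS peak in 4 libraries, and a second peak of 3180 to 3634 bp on the gene in the same libraries. In dsLaminB replicate 1 that wide peak was the strongest of the 2531 peaks, with a fold enrichment of 46.9, and the TSS peak ranked 3. In dsLaminB replicate 2 the wide peak ranked 686 with a fold enrichment of 7.22, in siAGO2 replicate 2 it ranked 1183 with 8.72, and in mock replicate 1 it ranked 1153 with 8.38. In siAGO2 replicate 1 there was no peak on w, and in mock replicate 2 only a weak one, at the 94.5 percentile. The replicates of each treatment thus differed at this gene. Without all peaks on w, the rank difference between the X and the autosomal arms was 2.02 percentile points.

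The widest X sites differed in how many genes they held. The widest, by the mean of the mock libraries, reached over rush, mei-38, Nmdar2, Rab27, sta and inc at chrX:1476462-1484099. Of these, sta encodes a ribosomal protein, Rab27 a trafficking GTPase, and inc an adaptor of a ubiquitin ligase. The widest peak there measured 983 and 7389 bp in siAGO2 cells, 512 and 805 bp in dsLaminB cells, and 4013 and 7601 bp in mock cells. At Act5C, a cytoplasmic actin gene (chrX:5899317-5904636), it measured 1714 and 4033 bp in siAGO2 cells, 445 and 3001 bp in dsLaminB cells, and 5305 and 3911 bp in mock cells. At Trf4-1 and IntS4, which encode a poly(A) polymerase and an Integrator subunit and adjoin CG12112 (chrX:8558360-8562217), it measured 1091 and 2418 bp in siAGO2 cells, 852 and 992 bp in dsLaminB cells, and 3858 and 3619 bp in mock cells. These 3 sites were chosen by their width in mock cells, so that a smaller width in the knockdowns is in part fixed by the choice.

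Peaks also lay in the rRNA gene segment at the proximal end of the X. The segment chrX:23200802-23291729 holds 17 rRNA genes and pseudogenes and 0 protein-coding genes. It had 1 and 6 peaks in siAGO2 cells, 14 and 9 in dsLaminB cells, and 5 and 1 in mock cells. Both dsLaminB libraries, whose lists are among the shortest, thus had more peaks in the segment than the other 4. On the rRNA genes themselves there were 0 and 5 peaks in siAGO2 cells, 11 and 5 in dsLaminB cells, and 5 and 0 in mock cells, so that there dsLaminB replicate 2 was no higher than siAGO2 replicate 2 or mock replicate 1. The 14 peaks of dsLaminB replicate 1 made up 2.78% of its X peaks, and the share was 0.0948% to 1.17% in the other libraries. The median percentile of these peaks was 74.3 in dsLaminB replicate 1 and 81.7 in replicate 2, so that they were weak in their lists. The segment consists of repeated copies, and rRNA genes are transcribed by another polymerase, Pol I. These counts were not tested.

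The second question was whether the X and the autosomal arms differed in their response to the knockdowns. The number of X peaks averaged 892 ± 222 in siAGO2 cells and 1089.5 ± 48.8 in mock cells (SD, n = 2 each), a change of −18.1%, beside −18.4% on 2L, 3L and 3R. In dsLaminB cells it averaged 637 ± 190 (SD, n = 2), a change of −41.5% from mock, beside −42.6% on the autosomal arms. Each exact permutation test gave p = 0.3333, the smallest that 2 libraries against 2 allow. The X thus held 23.9 ± 1.22% of the peaks of the 4 arms in siAGO2 cells, 24.5 ± 1.04% in dsLaminB cells, and 23.9 ± 0.0564% in mock cells (SD, n = 2 each). The difference from mock was −0.0543 percentage points in siAGO2 cells (pooled SD 0.867) and 0.529 in dsLaminB cells (pooled SD 0.739), both within the pooled SD (exact permutation p = 1 in each case).

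The excess of TSS peaks on the X was present in each treatment. The log2 ratio of the TSS-peak share, X over 2L, 3L and 3R, was 0.20 and 0.30 in siAGO2 cells, 0.36 and 0.27 in dsLaminB cells, and 0.23 and 0.25 in mock cells. Both dsLaminB values were above both mock values, by 0.076 on average (pooled SD 0.044), and the siAGO2 values lay on either side of mock, with a mean difference of 0.011 (pooled SD 0.053). The exact permutation test gave p = 0.3333 for dsLaminB and p = 1 for siAGO2, and could call neither. The dsLaminB difference was −0.015 when a −log10 q of 5 was the lower limit. The difference in median width between the X and the autosomal arms differed from mock by 4 bp in siAGO2 cells (pooled SD 15.5) and by 5.25 bp in dsLaminB cells (pooled SD 8.81), both less than the spread between libraries (exact permutation p = 1 and p = 0.667).

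At single X genes, peaks in the full lists were missing in the knockdowns rather than new. A gene was counted as lost when both mock libraries and neither knockdown library had a TSS peak, and as gained in the opposite case. In siAGO2 cells 47 X genes were lost, which is 2.14% of the X genes beside 2.94% of all 13968 protein-coding genes, and 0 were gained, beside 0.0286%. In dsLaminB cells 330 X genes were lost, 15.0% of the X genes beside 13.3% of all genes, and 0 were gained, beside 0%. Of the 1183 X genes with a TSS peak in both mock libraries these losses make up 3.97% in siAGO2 cells, against 6.58% on 2L, 3L and 3R, and 27.9% in dsLaminB cells, against 29.0%. No test was made of these counts, which follow the length of the lists. The study itself reported substantial increases in hypophosphorylated Pol II after LaminB depletion, from a differential binding analysis. Presence in a list is another measure, so the counts here cannot be set against that result. With lists of equal length, 13 X genes were lost and 16 gained in siAGO2 cells, and 24 were lost and 16 gained in dsLaminB cells. Without siAGO2 replicate 2 the siAGO2 loss was 324 genes, and without mock replicate 2 it was 81. Without dsLaminB replicate 2 the dsLaminB loss was 653 genes.

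The libraries of a treatment differed more than the X did from the autosomal arms. Of the 1183 X genes, 72.6% and 95.8% had a TSS peak in siAGO2 cells, and 44.8% and 71.5% in dsLaminB cells. The autosomal shares were 75.1% and 92.0% in siAGO2 cells, and 41.8% and 70.6% in dsLaminB cells. The X was the lower of the pair in siAGO2 replicate 1 and the higher in the other 3 libraries.

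**Figure D5:**
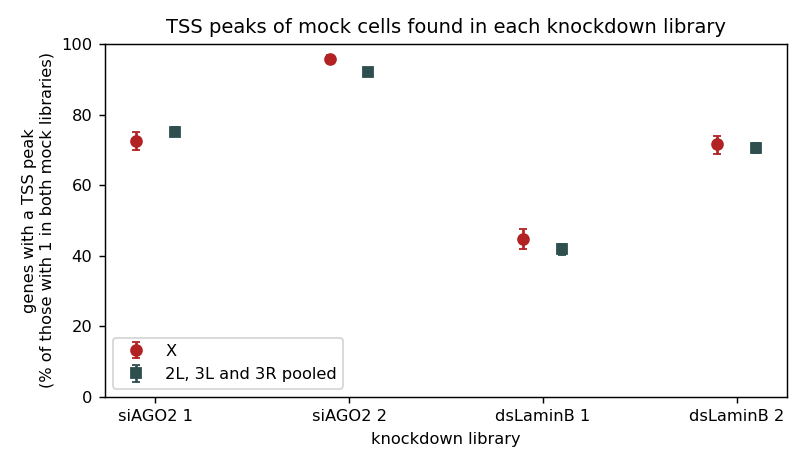
Genes with a TSS peak in a knockdown library, in percent of the genes with one in both mock libraries, for the X (1183 genes, circles) and 2L, 3L and 3R pooled (3983 genes, squares), with 95% Wilson intervals. Values on the X run from 44.8% to 95.8% over the 4 libraries, and each lies within 4 percentage points of the autosomal value.

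Among the lost genes the strongest in the libraries that had the peak were Paf-AHalpha, OtopLc and Rab39 for siAGO2. Paf-AHalpha (FBgn0025809), which encodes a subunit of platelet-activating factor acetylhydrolase, had no TSS peak in siAGO2 cells, one at the 58.6 percentile in dsLaminB replicate 2, and peaks at the 35.0 and 41.1 percentile in mock cells. OtopLc (FBgn0259150), an otopetrin proton channel gene, and Rab39 (FBgn0029959), a trafficking GTPase gene, were without a TSS peak in the 4 knockdown libraries. In mock cells OtopLc stood at the 56.8 and 62.6 percentile, and Rab39 at the 44.1 and 82.9. For dsLaminB they were CG14053, CG32533 and xmas, whose peaks stood between the 17.7 and the 30.3 percentile in siAGO2 replicate 2, and between the 18.5 and the 34.0 in mock cells. All 3 were also without a TSS peak in siAGO2 replicate 1. For xmas (FBgn0286809), which acts in mRNA export, the peak measured 1182 bp in siAGO2 replicate 2, and 1801 and 1411 bp in mock cells. Several of these peaks were also the TSS peak of a neighbour, that of Paf-AHalpha of mRpS30, that of Rab39 of Pdp, that of CG14053 of Mct1, that of CG32533 of Naa15-16 and mRpS14, and that of xmas of baz. These neighbours were not themselves counted as lost in the same comparison, so each had a TSS peak in a library of that knockdown. Pdp had one in both siAGO2 libraries. A lost call at these genes thus need not mean that no peak was left beside them.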

How the data were processed

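Before deposit, the authors ran cutadapt on the reads, aligned these to dm6 with Bowtie2, dropped poorly mapped reads and duplicates (Picard), and called broad regions with MACS2 2.1.1.20160309 for each replicate against its input. The submitters' processing notes name cutadapt 1.10 and Picard 2.11.0, whereas the methods of the study name other versions of both. The deposited score was not used. The deposited fold enrichment, a ratio to local background, and the deposited −log10 q were used inside each list to order or describe its peaks, and the deposited −log10 p was not used. The depth in reads is unknown, and the 6 input samples were not analysed here.

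Genes and TSSs came from Ensembl release 115 and sequences from the RefSeq assembly of the same length per chromosome. Values of the X and of 2L, 3L and 3R were taken within a library, and their differences were tested with an exact two-sided sign-flip test over 6 libraries with Benjamini-Hochberg adjustment over 6 measures. Knockdowns were set against mock with an exact two-sided permutation test. Intervals are Wilson intervals at 95%. Scripts used python 3.11.15, numpy 2.4.6 and pandas 2.3.3, and were tested on simulated data. The genes named were the 10 with the lowest mean rank percentile, the members of gene lists, up to 3 lost or gained genes per comparison, and the genes under the 3 widest sites. The wide peak on w, the rRNA segment and the gene classes were singled out after their values were seen. The members and lists were chosen with earlier results of these data known. Alternatives were a −log10 q of at least 5, lists of equal length (2531 peaks), peaks joined within 1000 bp, 100 kb bins with genes, TSS windows of 250 and 1500 bp, the gene start as the TSS, all genes, and ranks by fold enrichment. Others left out w, the X from the rRNA segment to its end, or each library.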

Additional observations from a re-analysis of the deposited data

How the results depend on the processing

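The direction of the X against 2L, 3L and 3R was kept for all 6 measures under every alternative run. With lists of equal length the differences were 1.97 peaks per Mb, 0.0433 peaks per gene, 4.57 percentage points of TSS-peak share and 0.137 of covered share, each with an exact p of 0.03125. Under the alternatives other than leaving out a library, the call changed only for the rank difference, which lost it at p = 0.0625 by the exact test under a −log10 q limit of 5 (2.47 percentile points) and with lists of equal length (3.56). Leaving out 1 library makes 0.0625 the smallest p, so no call is possible then. Without 1 library the differences ranged from 3.69 to 4.61 peaks per Mb, 0.0787 to 0.0907 peaks per gene, 6.78 to 7.77 percentage points of TSS-peak share, 0.203 to 0.294 percentage points of covered share, −14.1 to −8.6 bp of width and 1.26 to 2.33 percentile points of rank. The knockdown contrasts could not be called in any setting. Leaving out 1 library moved the log2 ratio of the TSS-peak share from −0.041 to 0.064 in siAGO2 and from 0.033 to 0.12 in dsLaminB, the width difference from −9.75 to 17.75 bp and from −2 to 12.5 bp, and the X share of peaks from −0.920 to 0.812 and from −0.209 to 1.27 percentage points. The siAGO2 log2 ratio was −0.046 under a −log10 q limit of 5 and −0.021 with lists of equal length, the dsLaminB log2 ratio −0.015 and its X share −0.269 percentage points under a −log10 q limit of 5. The X genes lost in siAGO2 were 160 under a −log10 q limit of 5 and 13 with lists of equal length, and 50 to 324 without 1 library. Those lost in dsLaminB were 24 with lists of equal length and 337 to 653 without 1 library. Gained genes were 16 in each knockdown with lists of equal length, and 0 to 6 (siAGO2) and 0 to 3 (dsLaminB) without 1 library. The cause of these changes was not tested, other than that a shorter list holds fewer peaks. The removal of the X from the rRNA segment to its end was chosen after seeing the data. The deviations of same-numbered libraries had a correlation of −0.074 between siAGO2 and mock, −0.081 between dsLaminB and mock, and 0.222 between siAGO2 and dsLaminB, over 2196 X genes, so the numbers were not taken to pair the knockdowns with mock. With the replicate block the differences were as before (0.011 and 0.076 for the log2 ratio, 4 and 5.25 bp, −0.0543 and 0.529 percentage points for siAGO2 and dsLaminB), with exact p-values of 0.5 for the dsLaminB log2 ratio and 1 for the others, and 0.5 is the smallest that 2 pairs allow. The unknown depth limits every statement on a missing peak.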
